A study of Mus musculus with 6 samples.

Results

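The transcripts described here are 8 genes of neutrophil granules and early myeloid cells, read in cultured macrophages without and with a microRNA cluster. They were chosen by symbol, and all 8 were among the 13254 genes of the deposited table. They comprise the primary granule genes Mpo, Elane, Prtn3 and Ctsg, the S100 genes S100a8 and S100a9, and the lysozyme genes Lyz1 and Lyz2. The cells were BMDMs, macrophages derived in culture from precursors of mouse bone marrow, and total RNA was sequenced. The 3 knockout samples (KO1, KO2 and KO3) came from mice without the miR-130b/301b cluster, and the 3 wild-type samples (WT1, WT2 and WT3) from mice with it. Strain, age and sex of the mice and the growth factor in the culture are not given in the sources used here. Nor do the labels say whether a genotype's samples came from separate animals, and so p-values reflect the spread between samples, possibly a technical one. The rule behind the comparison sets primary granule genes beside S100 and lysozyme genes in the 2 genotypes.

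Primary, or azurophil, granules are filled at the promyelocyte stage of neutrophil development, when the genes of their enzymes are transcribed. Mature neutrophils keep the proteins but little of these mRNAs. S100a8 and S100a9 are transcribed later, in maturing neutrophils and in monocytes. Lyz2 is the lysozyme gene of macrophages and neutrophils, whereas Lyz1 is best known from Paneth cells of the mouse intestine.

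Values are the deposited CPM, that is, counts per gene divided by a measure of library size. Columns added up to 989223 to 1018258. The sums of WT2 (1014741) and WT3 (1018258) exceed what division by the plain library total can give on this scale. The divisor was therefore not that total in these samples, and the scaling used is not given in the sources. The number of reads was unknown too, so counting intervals could not be given. The first principal component (43.7% of the variance) separated the genotypes, and the second (18.7%) set KO2 apart. The host transcript of the cluster, 2610318N02Rik, was listed at 0 in KO1, KO2 and KO3, against 1.63 CPM in WT1, 2.43 in WT2 and 2.07 in WT3. The 10 macrophage markers, led by Csf1r and Lamp1, were present in every sample and summed to between 11534 and 11716 CPM in KO and between 11388 and 11747 CPM in WT. None passed the test described next (limma, with 0 unadjusted p under 0.05).

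The primary granule genes were low in both genotypes and had lower means in KO, the S100 genes overlapped between genotypes, and the lysozyme genes were slightly higher in KO. Of the 8 genes, 6 reached 1 CPM in at least 3 samples. These 6 were compared, KO minus WT, by limma on log2(CPM + 1), with Benjamini-Hochberg (BH) adjustment over 11556 genes and a threshold of 0.05. Differences are given on that scale, which understates changes of low genes. Mpo alone passed among the 6, and it fell in KO. Over all tested genes 1.27% passed, 0.787% lower and 0.485% higher in KO. An unadjusted p under 0.05 was reached by 4 of the 6 (Mpo, Elane, Lyz1 and Lyz2), against 12.5% of all tested genes. KO and WT values were separate for 5 of the 8, of which Mpo, Elane and Prtn3 were lower in KO and Lyz1 and Lyz2 higher. Among all 13254 genes, 9.17% were lower in KO without overlap and 8.22% higher. In bulk samples, fewer cells of a type and less RNA per cell cannot be told apart.

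**Figure D1:**
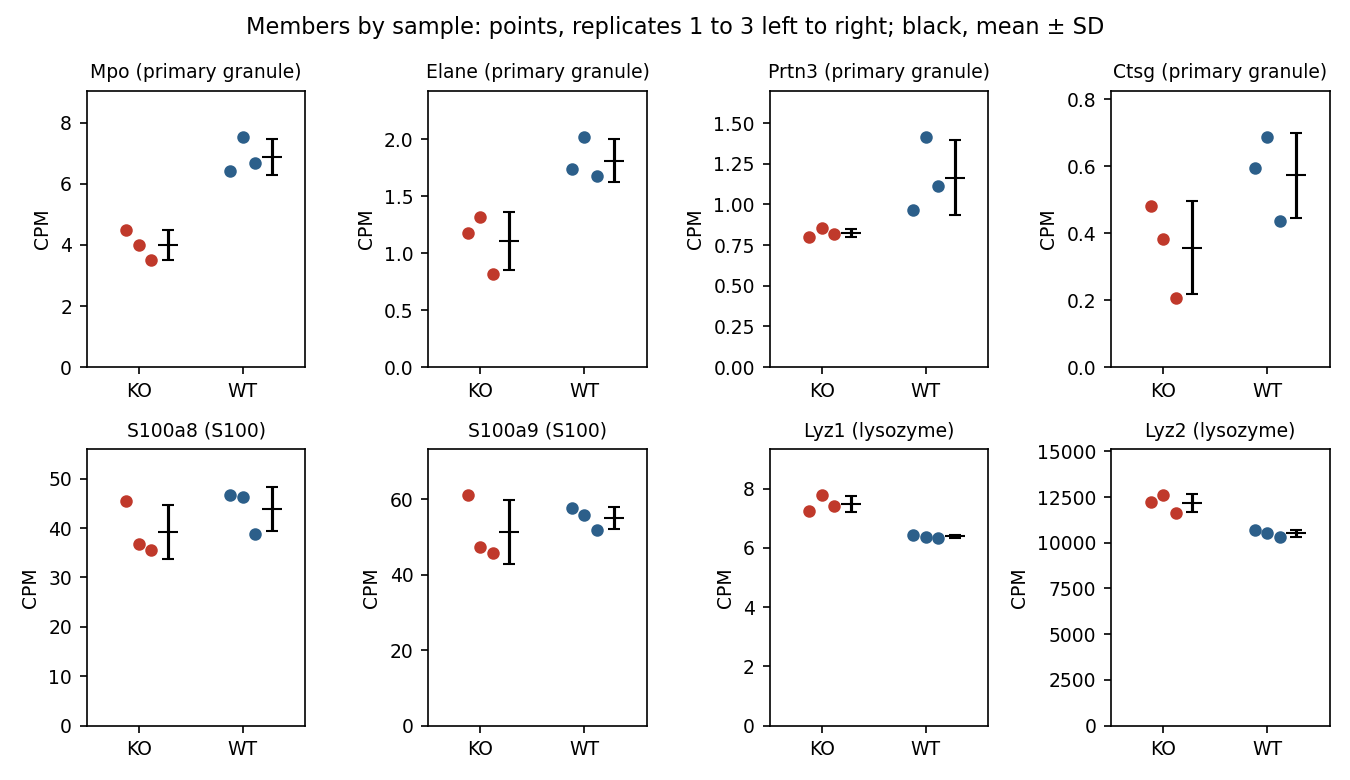
CPM of the 8 genes in each sample, KO left and WT right, with the mean ± SD (n = 3) in black and every axis starting at 0. Mpo, Elane and Prtn3 were lower in each KO sample than in any WT sample, S100a8, S100a9 and Ctsg overlapped, and Lyz1 and Lyz2 were higher in each KO sample.

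Mpo encodes myeloperoxidase, the haem enzyme that makes hypochlorous acid in the neutrophil phagosome. It measured 4.48 CPM in KO1, 3.99 in KO2 and 3.51 in KO3, against 6.41 in WT1, 7.55 in WT2 and 6.69 in WT3. Every KO sample lay below every WT sample. Mean levels were 3.99 ± 0.482 CPM in KO and 6.88 ± 0.594 CPM in WT (SD, n = 3 each), a KO to WT ratio of 0.580. Mpo fell in KO (log2 difference -0.66, SE 0.103, limma with BH-adjusted p = 0.0219). By exact permutation of the labels, two-sided, p was 0.1, the lowest value that 3 against 3 can reach. The call depended on single libraries, since the limma BH-adjusted p became 0.0616 without KO3, 0.106 without WT2 and 0.0891 without WT3. Without KO2 it was kept (log2 difference -0.66, limma with BH-adjusted p = 0.0485). Mpo overlaps the antisense gene model Gm11505, and since no strand setting is given for the counting, their reads cannot be told apart.

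The serine protease genes of the same granules had lower means in KO and did not pass. Elane, the neutrophil elastase gene, measured 1.17 CPM in KO1, 1.32 in KO2 and 0.822 in KO3, against 1.74 in WT1, 2.03 in WT2 and 1.68 in WT3. The groups were separate, with a ratio of means of 0.609 (log2 difference -0.42, SE 0.131, limma with BH-adjusted p = 0.23). Prtn3, the proteinase 3 gene, stayed under the filter and measured 0.802 CPM in KO1, 0.853 in KO2 and 0.819 in KO3, against 0.966 in WT1, 1.42 in WT2 and 1.11 in WT3. Its KO values were close together and below the lowest WT value, with a ratio of means of 0.707. For Elane and for Prtn3 the exact permutation p (two-sided) was 0.1, again the lowest possible. Ctsg, the cathepsin G gene, also stayed under the filter and measured 0.481 CPM in KO1, 0.384 in KO2 and 0.208 in KO3, against 0.594 in WT1, 0.689 in WT2 and 0.437 in WT3. KO1 exceeded WT3, so the groups overlapped, with a ratio of means of 0.624 and an exact permutation p (two-sided) of 0.2. Prtn3 overlaps Plppr3 on the opposite strand, which carries the same uncertainty as for Mpo.

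Within the primary granule genes, proportions to Mpo overlapped between genotypes. Relative to the CPM of Mpo, Elane amounted to 26.2% in KO1, 33.1% in KO2 and 23.4% in KO3, against 27.2% in WT1, 26.8% in WT2 and 25.1% in WT3. Prtn3 amounted to 17.9% in KO1, 21.4% in KO2 and 23.3% in KO3, against 15.1% in WT1, 18.8% in WT2 and 16.7% in WT3. The WT values for Elane lay inside the KO range, and those for Prtn3 overlapped with it. The 4 genes together stood at 6.28 ± 0.821 CPM in KO and 10.4 ± 1.08 CPM in WT (SD, n = 3 each), with a highest KO sum of 6.93 CPM and a lowest WT sum of 9.71 CPM. KO3 was the lowest sample for Mpo, Elane and Ctsg, and WT2 the highest for all 4.

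The 250 bases before the RefSeq start of these 4 genes are shown because the 4 had lower means in KO together. They were searched on both strands for GAGGAA, a core of sites of the myeloid factor PU.1, and for TTGCNNAA, a C/EBP-type motif. Coordinates are of GRCm38.p6 and not of GRCm39, the build in the submitters' processing notes. Sequences run 5′ to 3′ along the strand of the gene, and capitals mark GAGGAA.

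Mpo (chr11:87793534-87793783, plus strand): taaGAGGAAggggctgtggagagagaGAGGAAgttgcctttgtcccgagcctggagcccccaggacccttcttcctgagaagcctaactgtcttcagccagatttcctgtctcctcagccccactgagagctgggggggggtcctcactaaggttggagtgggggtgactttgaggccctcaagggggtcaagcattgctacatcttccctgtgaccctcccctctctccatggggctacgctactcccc
Elane (chr10:79886062-79886311, plus strand): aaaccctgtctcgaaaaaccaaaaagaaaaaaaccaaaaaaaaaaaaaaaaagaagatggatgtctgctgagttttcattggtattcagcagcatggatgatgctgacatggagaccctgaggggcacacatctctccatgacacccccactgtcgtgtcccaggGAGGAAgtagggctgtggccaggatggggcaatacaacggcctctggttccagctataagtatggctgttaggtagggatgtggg
Prtn3 (chr10:79879417-79879666, plus strand): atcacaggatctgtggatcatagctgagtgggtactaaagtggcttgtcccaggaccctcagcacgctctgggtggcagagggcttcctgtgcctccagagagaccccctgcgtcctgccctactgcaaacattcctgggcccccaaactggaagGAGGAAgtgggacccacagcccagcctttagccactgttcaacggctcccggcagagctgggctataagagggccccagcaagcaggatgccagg
Ctsg (chr14:56102575-56102824, minus strand): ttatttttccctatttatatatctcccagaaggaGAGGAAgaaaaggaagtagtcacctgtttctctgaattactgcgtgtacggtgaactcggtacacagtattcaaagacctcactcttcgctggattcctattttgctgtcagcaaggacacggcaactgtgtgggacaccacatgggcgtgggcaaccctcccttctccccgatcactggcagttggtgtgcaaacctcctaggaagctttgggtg

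GAGGAA was present in the 4 windows, against 23.3% of 32851 RefSeq windows of that length. Mpo had 2 copies, whose first bases lay 247 and 224 bases before the start. The single copies lay 85 bases before it in Elane, 95 in Prtn3 and 216 in Ctsg. These distances hold for the RefSeq starts only. The GENCODE M21 gene starts of Mpo (87793581) and Elane (79886247) lie inside the windows, and that of Prtn3 (79874476) lies before its window. Of the other 4 members S100a8 had the motif, in 2 copies on the opposite strand. TTGCNNAA was in the windows of S100a9 and Lyz1 and in 9.56% of all windows. The motif of a myeloid factor was searched in myeloid genes, so the share over all windows is no test of enrichment. These matches describe letters, binding was not measured, and a link to the difference between genotypes was not tested. Elane and Prtn3 are next to each other on chromosome 10, while Mpo is on chromosome 11 and Ctsg on chromosome 14. Of the 10 other genes of the table nearest to members on the chromosomes, 6 were tested and 0 passed (limma, with 1 unadjusted p under 0.05, that of Med16).

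S100a8 and S100a9 encode the subunits of calprotectin, a complex that binds calcium and sequesters zinc and manganese. Neither passed the test, and KO overlapped WT in both. S100a8 measured 45.5 CPM in KO1, 36.7 in KO2 and 35.5 in KO3, against 46.7 in WT1, 46.2 in WT2 and 38.8 in WT3. The limma difference was -0.16 with a 95% interval of -0.39 to 0.07 and a BH-adjusted p of 0.569. S100a9 measured 61.1 CPM in KO1, 47.4 in KO2 and 45.7 in KO3, against 57.7 in WT1, 55.8 in WT2 and 52.0 in WT3. Its limma difference was -0.11 with a 95% interval of -0.34 to 0.12 and a BH-adjusted p of 0.715. KO1 had the highest S100a9 of the 6 samples, whereas KO2 and KO3 were below every WT sample in both genes. The pair summed to 90.7 ± 13.9 CPM in KO and 99.0 ± 7.29 CPM in WT, a difference of -8.36 CPM. That difference ranged from -16.3 CPM without KO1 to -3.65 CPM without KO3. Without KO1 the limma BH-adjusted p was 0.358 for S100a8 and 0.191 for S100a9. Relative to S100a9, S100a8 amounted to 76.5 ± 1.81% in KO and 79.5 ± 4.30% in WT (SD, n = 3 each).

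Lyz2, the lysozyme M gene, was the most abundant member. It measured 12249 CPM in KO1, 12605 in KO2 and 11636 in KO3, against 10684 in WT1, 10529.6 in WT2 and 10326 in WT3. Every KO sample lay above every WT sample, with a ratio of means of 1.16, and the test was not passed (log2 difference 0.21, SE 0.0459, limma with BH-adjusted p = 0.0855). It passed with robust moderation of the variances (limma, BH-adjusted p = 0.0319) and under no other alternative. The limma BH-adjusted p of Lyz2 was 0.316 with quantile normalization, 0.16 with no variance trend and 0.319 without KO1. Of the column sum, Lyz2 took 1.23 ± 0.0496% in KO and 1.04 ± 0.0332% in WT (SD, n = 3 each). Lyz1, the lysozyme P gene, measured 7.25 CPM in KO1, 7.78 in KO2 and 7.43 in KO3, against 6.45 in WT1, 6.38 in WT2 and 6.34 in WT3. These groups were separate too, and the test was not passed (log2 difference 0.20, SE 0.0719, limma with BH-adjusted p = 0.296). For both genes the exact permutation p (two-sided) was 0.1, the lowest possible.

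Lyz1 kept close to a fixed proportion of Lyz2. Relative to the CPM of Lyz2, it amounted to 0.0592% in KO1, 0.0617% in KO2 and 0.0638% in KO3, against 0.0604% in WT1, 0.0606% in WT2 and 0.0614% in WT3. The WT proportions lay inside the KO range. The genes are neighbouring copies on the minus strand of chromosome 10. Their GENCODE M21 transcripts, 1263 bases for Lyz1 and 1316 for Lyz2, matched at 96.0% of aligned bases without gaps, and 16.1% of the 50-base windows and 2.06% of the 100-base windows of Lyz1 also occur in Lyz2. The read length is not given in the sources used here. Whether the Lyz1 values hold reads of Lyz2 was not tested, and they are uncertain for that reason. The 120 bases before the RefSeq starts are shown for the likeness of the copies. They differ at 9 positions, in capitals (GRCm38.p6, 5′ to 3′ along the strand of the gene). The GENCODE M21 gene start of Lyz2 (117282321) lies inside its window, and that of Lyz1 (117292868) lies next to its window.

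Lyz1 (chr10:117292869-117292988, minus strand): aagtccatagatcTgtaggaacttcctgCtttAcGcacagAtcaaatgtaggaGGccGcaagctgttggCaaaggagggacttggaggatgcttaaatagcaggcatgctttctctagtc
Lyz2 (chr10:117282273-117282392, minus strand): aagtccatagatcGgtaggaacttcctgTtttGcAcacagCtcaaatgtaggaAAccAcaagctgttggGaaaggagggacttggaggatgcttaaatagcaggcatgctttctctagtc

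**Figure D2:**
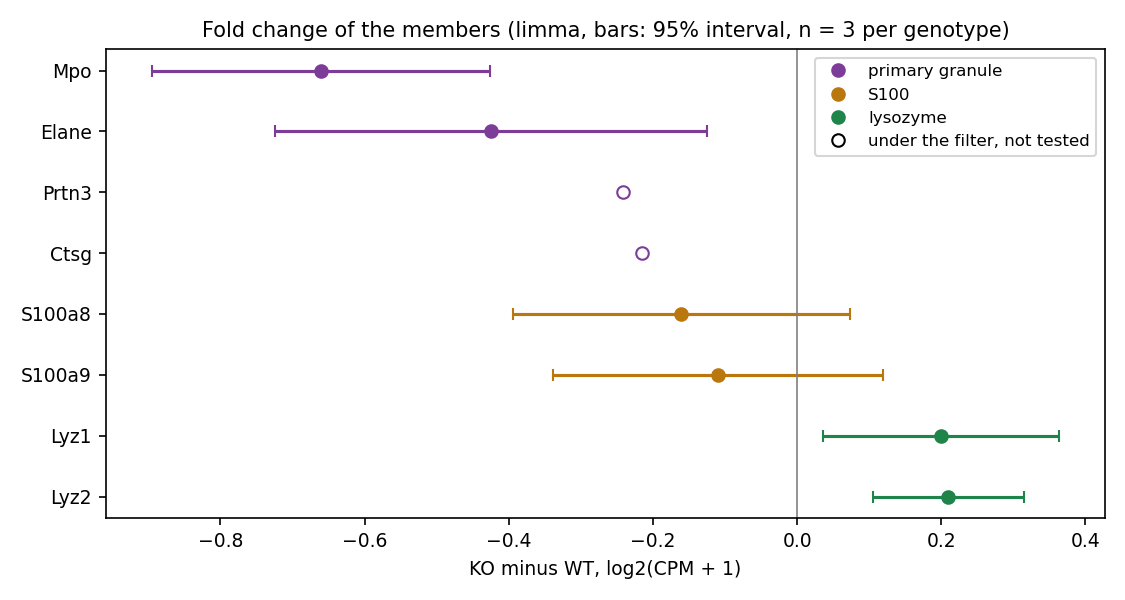
KO minus WT on the log2(CPM + 1) scale for each gene, with the 95% interval of limma (3 samples per genotype). Open points are Prtn3 (-0.24) and Ctsg (-0.21), which stayed under the filter and have no interval. Primary granule genes lie left of 0, the S100 intervals span 0, and the lysozyme genes lie right of 0. The intervals are not adjusted for the number of genes, and only Mpo had a limma adjusted p under 0.05.

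Set side by side, the classes had different values, and a difference between classes was not tested. Mpo and Elane had a median log2 difference of -0.54, the S100 genes -0.14 and the lysozyme genes 0.20, against 0.00 over all tested genes. Relative to the S100 sum, the primary granule sum amounted to 6.50% in KO1, 7.78% in KO2 and 6.59% in KO3, against 9.30% in WT1, 11.5% in WT2 and 10.9% in WT3. All KO proportions were below all WT proportions. Relative to S100a9, Mpo amounted to 7.80 ± 0.559% in KO and 12.5 ± 1.26% in WT, without overlap. That ratio largely repeats the one before it, because Mpo is the largest part of the primary granule sum. Of that sum Mpo made up 3.99 of 6.28 CPM in KO and 6.88 of 10.4 CPM in WT (means). Relative to the lysozyme sum, the S100 sum amounted to 0.870% in KO1, 0.667% in KO2 and 0.698% in KO3, against 0.977% in WT1, 0.968% in WT2 and 0.878% in WT3. Here KO1 lay just below WT3, the lowest WT sample.

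**Figure D3:**
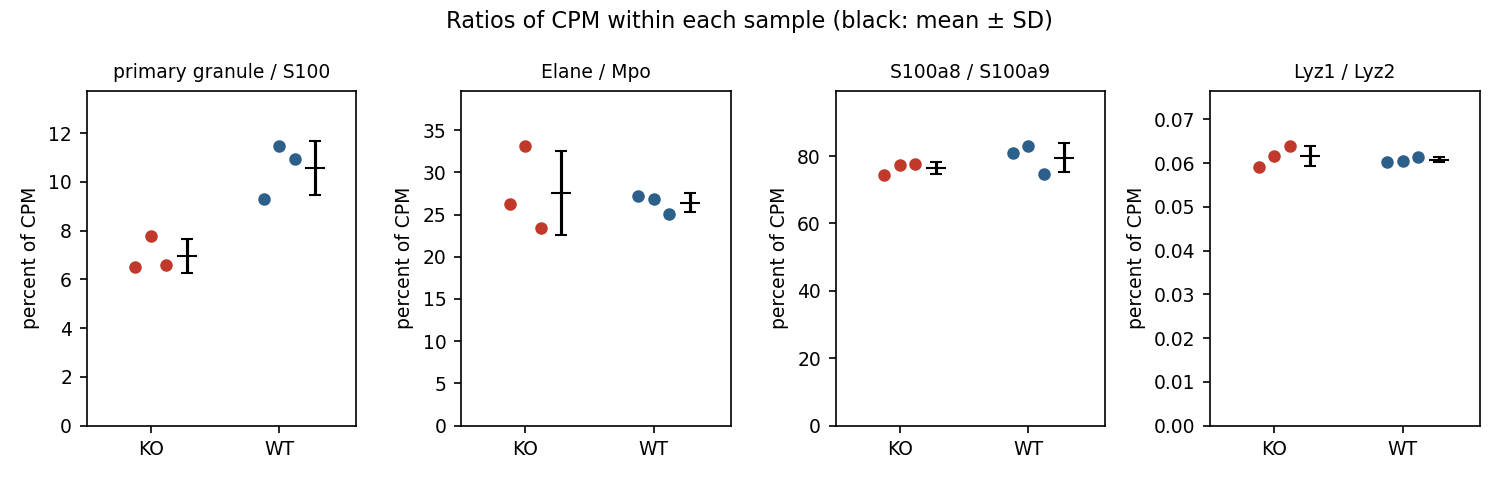
Ratios of CPM within each sample in percent, KO left and WT right, with the mean ± SD (n = 3) in black and axes from 0. The primary granule sum relative to the S100 sum is at most 7.78% in KO and at least 9.30% in WT, while Elane to Mpo, S100a8 to S100a9 and Lyz1 to Lyz2 overlap.

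Levels can be compared between genes per kilobase of the longest protein-coding transcript of GENCODE M21, and their order was the same in both genotypes. In CPM per kilobase (mean ± SD, n = 3 each), Lyz2 stood at 9243 ± 372 in KO and 7989 ± 137 in WT, S100a9 at 99.1 ± 16.3 in KO and 106 ± 5.65 in WT and S100a8 at 80.8 ± 11.2 in KO and 90.3 ± 9.12 in WT. S100a9 and S100a8 overlapped in KO (88.1 to 118 and 73.1 to 93.6 CPM per kilobase) but not in WT. On the same scale Lyz1 followed at 5.93 ± 0.214 in KO and 5.06 ± 0.0440 in WT, and Mpo at 1.45 ± 0.175 in KO and 2.50 ± 0.216 in WT. Elane, at 1.12 ± 0.260 in KO and 1.84 ± 0.188 in WT, overlapped with Mpo in KO but not in WT. Prtn3, at 0.805 ± 0.0256 in KO and 1.14 ± 0.224 in WT, and Ctsg, at 0.357 ± 0.138 in KO and 0.572 ± 0.127 in WT, were the lowest.

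Of 17 genes of secondary and tertiary granules, which neutrophils fill after the primary granules, all were tested, with a median of -0.07. Past the test, 1 fell and 0 rose (limma, BH-adjusted p under 0.05), against 1.27% of all tested genes in either direction. An unadjusted p under 0.05 was reached by 1 higher and 3 lower (limma), against 12.5% of all tested genes. The list summed to between 4843 and 4923 CPM in KO and between 5021 and 5273 CPM in WT. Much of that came from genes that macrophages also express, so the median does not describe neutrophil granule RNA alone. Mmp8, neutrophil collagenase, fell to 7.42 ± 0.543 CPM in KO, against 10.3 ± 0.169 CPM in WT (log2 difference -0.43, SE 0.0745, limma with BH-adjusted p = 0.0364). Among samples left out in turn it passed only without KO3, and the limma BH-adjusted p reached 0.159 without WT3. The next 3 genes were chosen after their values were seen. Ltf, the lactoferrin gene, measured 34.4 CPM in KO1, 26.4 in KO2 and 30.01 in KO3, against 30.2 in WT1, 23.9 in WT2 and 28.8 in WT3 (log2 difference 0.13, limma with BH-adjusted p = 0.695). Ngp, the neutrophilic granule protein gene, measured 72.0 CPM in KO1, 55.8 in KO2 and 59.6 in KO3, against 69.4 in WT1, 72.2 in WT2 and 64.8 in WT3 (log2 difference -0.14, limma with BH-adjusted p = 0.55). Both overlapped, and KO1 exceeded KO2 and KO3 in both, as for S100a9. Mmp9, a gelatinase gene that macrophages also express, stood at 172 ± 7.998 CPM in KO and 289.7 ± 74.5 CPM in WT without overlap (log2 difference -0.72, limma with BH-adjusted p = 0.106).

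Other genes of the primary granule and its stage, 11 listed and 10 tested, had 0 past the test (limma, with an unadjusted p under 0.05 for 1 higher and 2 lower) and a median of -0.02. The most abundant were the lysosomal enzyme genes Hexa, at 1015 ± 26.2 CPM in KO and 1006 ± 10.5 CPM in WT (log2 difference 0.01, limma with BH-adjusted p = 0.911), and Gusb, at 699 ± 5.64 CPM in KO and 744 ± 32.9 CPM in WT (log2 difference -0.09, limma with BH-adjusted p = 0.387). Macrophages express both in lysosomes. Ms4a3, a gene of granulocyte and monocyte progenitors chosen after its values were seen, measured 0.164 CPM in KO1, 0.387 in KO2 and 0.241 in KO3, against 0.584 in WT1, 0.357 in WT2 and 0.454 in WT3. Its groups overlapped under the filter. Of 8 genes that process or inhibit granule serine proteases, all tested, 0 passed (limma, with an unadjusted p under 0.05 for 3, all higher), and the median was 0.05. Cst3, the cystatin C gene, stood at 809 ± 26.8 CPM in KO and 754 ± 12.4 CPM in WT (log2 difference 0.10, limma with BH-adjusted p = 0.283). Serpinb6a, a serine protease inhibitor gene, stood at 598 ± 20.1 CPM in KO and 564 ± 6.82 CPM in WT (log2 difference 0.09, limma with BH-adjusted p = 0.354). Ctsc, held by both lists and chosen after its values were seen, encodes the peptidase that activates elastase, proteinase 3 and cathepsin G. It stood at 197 ± 2.32 CPM in KO and 174 ± 9.53 CPM in WT (log2 difference 0.18, limma with BH-adjusted p = 0.12).

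**Figure D4:**
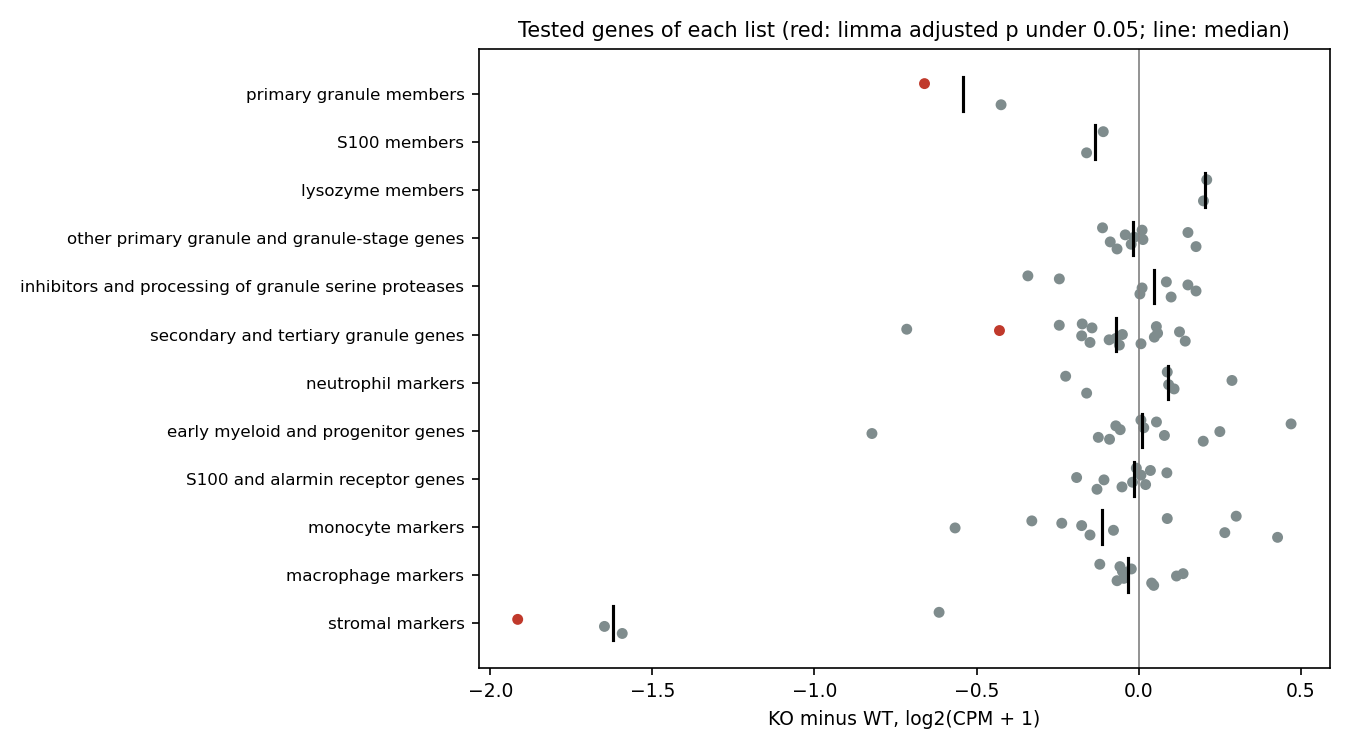
KO minus WT on the log2(CPM + 1) scale for the tested genes of the members and of 9 lists, 1 point per gene, red where limma's adjusted p was under 0.05, with a black line at the median of the list. The primary granule members have a median of -0.54, the secondary and tertiary granule genes -0.07 and the stromal markers -1.62.

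Of 16 genes of early myeloid and progenitor cells, 12 were tested and 0 passed (limma, with an unadjusted p under 0.05 for 2 higher and 2 lower), with a median of 0.01. The most abundant were Npm1 (log2 difference 0.02, limma with BH-adjusted p = 0.887) and Cdk6 (log2 difference -0.09, limma with BH-adjusted p = 0.459), genes of growth and the cell cycle. The following were chosen after their values were seen. Kit, the stem cell factor receptor gene of progenitors and mast cells, measured 0.438 CPM in KO1, 0.978 in KO2 and 0.356 in KO3, against 1.67 in WT1, 2.59 in WT2 and 1.23 in WT3. It reached the filter through its WT values alone, so its test is not given, and it is 1 of the 2 lower genes in the count above. Flt3, a receptor gene of early progenitors and dendritic cells, stayed under the filter at 0.281 ± 0.0377 CPM in KO and 0.494 ± 0.0518 CPM in WT. Neither overlapped, and both were lower in KO. Of the 16 genes, 3 were lower in KO without overlap (Kit, Flt3 and Cebpa) and 3 higher (Sox4, Meis1 and Irf8). Among all 13254 genes these shares were 9.17% and 8.22%. Sox4, a transcription factor gene, stood at 43.1 ± 7.64 CPM in KO and 30.6 ± 2.20 CPM in WT, higher in each KO sample (log2 difference 0.47, limma with BH-adjusted p = 0.112).

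Of 10 neutrophil markers, 6 were tested and 0 passed (limma, with an unadjusted p under 0.05 for 2 higher and 1 lower), with a median of 0.09. Ly6g was not analysed here. Cxcr2, a chemokine receptor gene of mature neutrophils chosen after its values were seen, measured 0.972 CPM in KO1, 0.731 in KO2 and 0.675 in KO3, against 1.15 in WT1, 0.823 in WT2 and 0.572 in WT3, with overlap. The most abundant of the list, which macrophages also express, were Anxa1 at 1699 ± 50.8 CPM in KO and 1901 ± 126 CPM in WT (log2 difference -0.16, limma with BH-adjusted p = 0.245) and Cxcr4 at 90.2 ± 2.25 CPM in KO and 84.5 ± 2.43 CPM in WT (log2 difference 0.09, limma with BH-adjusted p = 0.379). Anxa1 passed without WT1, lower in KO (limma, BH-adjusted p = 0.0303). Of 10 monocyte markers, all tested, 0 passed (limma, with an unadjusted p under 0.05 for 1, higher), with a median of -0.11. Ccr2, the monocyte chemokine receptor gene, stood at 228 ± 18.2 CPM in KO and 172 ± 38.9 CPM in WT (log2 difference 0.43, limma with BH-adjusted p = 0.245) and passed without WT1 (limma, BH-adjusted p = 0.0179). F13a1, a transglutaminase gene, stood at 74.1 ± 2.14 CPM in KO and 78.3 ± 2.28 CPM in WT (log2 difference -0.08, limma with BH-adjusted p = 0.484). Of 10 other S100 genes and receptors of S100 proteins, all tested, 0 passed (limma, with an unadjusted p under 0.05 for 2, both lower), with a median of -0.01. The most abundant were the scavenger receptor gene Cd36 (log2 difference -0.13, limma with BH-adjusted p = 0.637) and S100a4 (log2 difference 0.09, limma with BH-adjusted p = 0.426).

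Stromal markers were set apart by genotype. The 6 listed were lower in every KO sample than in any WT sample and summed to 13.1 CPM in KO1, 4.65 in KO2 and 31.9 in KO3, against 51.4 in WT1, 44.8 in WT2 and 49.4 in WT3. Of 4 tested, the collagen gene Col3a1 fell to 0.881 ± 0.580 CPM in KO, against 6.09 ± 2.24 CPM in WT (log2 difference -1.92, SE 0.264, limma with BH-adjusted p = 0.0133). The call was lost without KO1 (limma, BH-adjusted p = 0.0716), without WT2 (limma, BH-adjusted p = 0.0549) and with no variance trend (limma, BH-adjusted p = 0.0596). Col3a1 met the filter through the WT samples, where it was high, which limits the call. It measured 0.816 CPM in KO1 and 0.337 in KO2, and of the KO samples only KO3 (1.49) reached 1 CPM. Pdgfrb, also tested and chosen after its values were seen, was likewise under 1 CPM in KO1 (0.568) and KO2 (0.240). From high to low, the KO samples ran KO3, KO1, KO2 in the stromal sum and KO1, KO2, KO3 in Mpo. Both were lower in every KO sample than in any WT sample. None of the 6 stromal genes was at 0 in any sample, and their part in the primary granule difference was not tested. Dendritic cell markers, 3 of 7 listed, summed to between 1.38 and 1.63 CPM in KO and between 1.96 and 2.35 CPM in WT. Lymphoid markers, 5 of 11 listed, summed to between 137 and 149 CPM in KO and between 125 and 134 CPM in WT, most of it Ighm. Eosinophil markers, 3 of 6 listed, summed to between 51.8 and 74.5 CPM in KO and between 51.8 and 58.2 CPM in WT, most of it Ccr3. Megakaryocyte markers, 2 of 5 listed, summed to between 60.7 and 88.3 CPM in KO and between 74.2 and 86.3 CPM in WT, most of it Pf4. In these 4 lists 0 genes passed (limma, with an unadjusted p under 0.05 for 2, both lymphoid and higher). The 1 tested dendritic cell gene, Siglech, reached the filter through its WT values alone, so the count holds no usable test of that list. Among the lymphoid markers 2 were higher in KO without overlap and 2 lower. The B cell genes among them, chosen after their values were seen, went both ways: Cd79b stood at 5.45 ± 0.502 CPM in KO and 4.47 ± 0.214 CPM in WT, Cd79a at 0.595 ± 0.131 CPM in KO and 0.975 ± 0.0369 CPM in WT and Ms4a1 at 0.434 ± 0.0755 CPM in KO and 0.657 ± 0.165 CPM in WT, Cd79a and Ms4a1 under the filter. Ighm passed without WT1 (limma, BH-adjusted p = 0.0476) and Ccr3 without KO2 (limma, BH-adjusted p = 0.0264). Among mast cell and basophil markers Hdc was listed, under 1 CPM in every sample, and erythroid markers were not analysed here.

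The genes with the profile over 6 samples most like that of a member were found by the root mean square (RMS) difference of centred log2(CPM + 1). For Mpo they were Atpsckmt, Trem4 and Slc12a5 (RMS difference 0.0809 to 0.0931, own spread 0.346). Trem4 stood at 4.59 ± 0.245 CPM in KO and 7.29 ± 0.113 CPM in WT, and Atpsckmt at 3.83 ± 0.411 CPM in KO and 6.20 ± 0.218 CPM in WT. For S100a9 they were Mettl13, Rpusd2 and Rnd2 (0.0381 to 0.0508, own spread 0.147). For Lyz1 they were Mpg, Zfp866 and Rad51c (0.0213 to 0.0287, own spread 0.103), and for Lyz2 they were Lpxn, Pbxip1 and Lysmd3 (0.0291 to 0.0319, own spread 0.111).

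**Figure D5:**
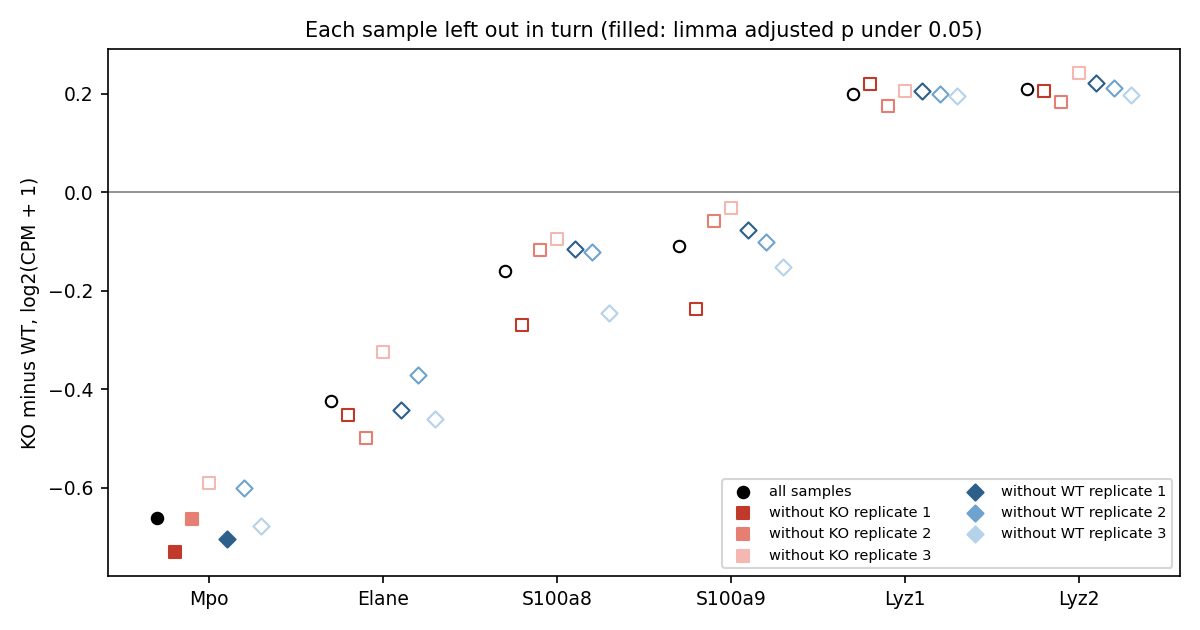
KO minus WT on the log2(CPM + 1) scale for the 6 tested genes with all samples (black) and with each sample left out in turn, filled where limma's adjusted p was under 0.05. Mpo ranges from -0.73 to -0.59 and loses the call in 3 of 6 fits, and S100a9 ranges from -0.24 to -0.03.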

How the data were processed

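The authors deposited 1 table of CPM values for 3 KO and 3 WT samples, per the file headers. GRCm39 is the only build in the submitters' processing notes. Aligner, counter, annotation, scaling and strand setting are not given in the sources used here. Of values under 0.4 CPM, 28.6% to 60.0% per sample fell within 0.1 of whole-read steps, too few to recover reads, and no count test was run. A headerless column with 1 value stayed out, and 0 other sample columns were unused.

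Genes reaching 1 CPM in 3 or more samples were compared by limma 3.58.1 (R 4.3.3) with a mean-variance trend on log2(CPM + 1), two-sided, with Benjamini-Hochberg adjustment. The model was tested on simulated data. Exact permutation over the 20 labelings used scipy 1.17.1. Alternatives were pseudocounts of 0.1, 0.5 and 5, other filters, scalings and moderation, a replicate block, and each sample left out.

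The members and the 15 lists beside them were chosen with earlier results of these data known. Named are the members, per list up to 6 genes that passed (failing any, the 2 with the highest level), the 3 nearest profiles of 4 members, and chromosome neighbours. Any other gene is marked as chosen on its values. Neighbours and transcript lengths came from GENCODE M21 (GRCm38), and promoters from RefSeq (GRCm38.p6), where all 8 members matched by symbol. Transcripts were aligned with Biopython 1.88.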

Additional observations from a re-analysis of the deposited data

How the results depend on the processing

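Over 17 alternatives, the 6 tested members kept their sign wherever they were tested. The count of genes past the test (147 of 11556) was 74 without the mean-variance trend, ranged from 55 (without WT3) to 243 (without WT1) when a sample was left out (63 without KO1, 58 without WT2), and was 125 to 191 under the remaining alternatives. The count of members past the test (1, Mpo) was 2 with robust moderation, which added Lyz2, and ranged from 0 (without KO3, WT2 or WT3) to 1 when a sample was left out. The cause was not tested.

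Replicate numbers have no stated meaning, so same-numbered samples were not treated as pairs. They correlated at 0.000154, 0.0834 and 0.0646, with 4 of 6 samples closest to their own number, which does not settle whether they were pairs. With a replicate block, 142 genes and 1 member passed (limma). Of the other named genes past the test, Mmp8 (limma, BH-adjusted p = 0.0661) and Atpsckmt (limma, BH-adjusted p = 0.0555) did not pass with the block.

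Among the other named genes, small log2 differences changed sign when a sample was left out, over these ranges: Hexa (-9.1e-05 to 0.034), Npm1 (-0.0028 to 0.029), Prg2 (-0.22 to 0.11), Pf4 (-0.17 to 0.099), Cd4 (-0.055 to 0.10), Mettl13 (-0.17 to 0.00050), Rnf17 (-0.18 to 0.042), S100a6 (-0.013 to 0.091), Cpsf6 (-0.0038 to 0.057) and Yeats4 (-0.017 to 0.072). Prtn3 and Ctsg stayed under the filter, and the unknown read depth limits the precision of genes near 1 CPM. With 3 samples per genotype, an exact permutation test cannot go below 0.1.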
